A study of Mus musculus with 6 samples.

Results

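The genes described here are 47 members of the BMP and TGF-beta system, chosen by name as ligands (18 genes), receptors (11), antagonists (8), feedback and target genes (6) and latent TGF-beta binding proteins (4), out of 55471 genes in the expression table. Polyadenylated RNA of endosteal mesenchymal stromal cells, which line the inner face of bone, was read in 6 libraries from C57BL/6J mice of unstated age and sex. In 3 libraries, labelled WT, the mice carried the floxed Bap1 allele without Cre (Bap1fl/fl). In the other 3, labelled cKO, the same floxed allele was combined with Prx1-cre, whose promoter is active in limb mesenchyme (Prx1-cre;Bap1fl/fl). The product of Bap1 takes ubiquitin off histone H2A, and the comparison asks what its loss does to the stromal cells of the marrow niche.

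Ligands of this superfamily are secreted dimers that bring together type I and type II serine/threonine kinase receptors at the cell surface. The type I receptor then phosphorylates Smad proteins, with BMPs acting mainly through Smad1, Smad5 and Smad9 and activins and TGF-betas mainly through Smad2 and Smad3. Secreted antagonists trap the ligands, latent TGF-beta binding proteins anchor inactive TGF-beta in the matrix, and the inhibitory Smads and the Id genes are induced by the signal. In bone, BMPs promote osteoblast formation, TGF-beta is stored in the matrix, and activin acts on both bone and blood cells.

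The sequences just upstream of 4 members are shown because their genes differed strongly in opposite directions. Inhba and Fstl3, an activin subunit and an activin inhibitor, were lower in the libraries labelled cKO, and the BMP antagonists Nbl1 and Chrd were higher. Each is the 250 bases before the RefSeq start on the gene's strand, build GRCm38.p6, and capitals mark GGCGCC, a core of BMP-response elements, and CAGAC on either strand (GTCTG when reversed), part of the Smad3 binding box.
Inhba, chr13:16011601-16011850, plus strand: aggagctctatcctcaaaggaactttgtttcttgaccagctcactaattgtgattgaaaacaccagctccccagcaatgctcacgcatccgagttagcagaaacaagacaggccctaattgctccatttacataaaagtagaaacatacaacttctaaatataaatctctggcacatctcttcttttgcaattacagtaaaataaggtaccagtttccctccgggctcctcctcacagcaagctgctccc
Fstl3, chr10:79777024-79777273, plus strand: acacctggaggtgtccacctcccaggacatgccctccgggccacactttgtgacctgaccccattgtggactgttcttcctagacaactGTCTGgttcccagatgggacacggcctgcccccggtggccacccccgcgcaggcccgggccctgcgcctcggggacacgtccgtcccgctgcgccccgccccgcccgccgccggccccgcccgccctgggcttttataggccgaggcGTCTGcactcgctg
Nbl1, chr4:139092971-139093220, minus strand: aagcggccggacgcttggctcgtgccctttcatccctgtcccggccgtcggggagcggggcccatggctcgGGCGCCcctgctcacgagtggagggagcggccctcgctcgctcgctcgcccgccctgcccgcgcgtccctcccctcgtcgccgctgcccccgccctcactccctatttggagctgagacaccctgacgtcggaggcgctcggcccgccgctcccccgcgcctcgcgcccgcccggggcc
Chrd, chr16:20732877-20733126, plus strand: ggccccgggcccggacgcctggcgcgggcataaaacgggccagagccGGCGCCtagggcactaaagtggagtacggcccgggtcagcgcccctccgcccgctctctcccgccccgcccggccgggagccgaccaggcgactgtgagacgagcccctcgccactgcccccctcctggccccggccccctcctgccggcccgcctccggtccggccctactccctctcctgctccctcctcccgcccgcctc

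The Inhba window was AT-rich, with a GC content of 43.2% and 3 CpG sites, and held neither motif. The Fstl3 window had a GC content of 71.2%, 22 CpG sites and 2 matches to CAGAC. Nbl1 and Chrd had GC contents of 77.6% and 78.0% with 36 and 28 CpG sites, and each held GGCGCC at 1 position. GGCGCC also stood in windows of Tgfbr1, Bmpr1a and Ltbp4, which rose. It stood too in those of Bmpr2, Grem1, Id2 and Id4, which did not pass the test below. It was absent from those of Tgfb1, Gdf11, Tgfbr2 and other genes that rose, and of Bmp4 and Acvr1, which fell. RefSeq promoters were matched for 34 of the 47 genes, at 41 starts, with a median of 18 CpG sites against 6 over all 32851 promoters of the table. GGCGCC was found in 24.4% of the members' windows and in 9.59% of all, and CAGAC in 51.2% and 42.2%. These matches describe letters and were not tested as sites.

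Depth, estimated from the steps between low values, was 13.1 to 22.1 M fragments, and 3 fragments per kilobase were worth 0.136 to 0.229 RPKM. This floor covers counting error only. Levels are in RPKM, reads normalised to gene length and to library size. Bap1 measured 22.8, 22.72 and 24.01 RPKM in WT replicates 1 to 3 against 28.27, 25.16 and 22.99 in those labelled cKO, a log2 difference of 0.13 ± 0.10 (SE; limma adjusted p = 0.29). A whole-gene RPKM does not show whether the floxed exons were removed, so it does not check the labels. Of the 12 listed mesenchymal markers 11 were tested. In the libraries labelled cKO 7 were lower (Pdgfrb, Col1a1, Thy1, Eng, Cd44, Vim and Cxcl12) and 1, Pdgfra, was higher. Col1a1 went from 462.77 to 541.83 RPKM in WT to 14.64 to 71.44. Cxcl12 went from 488.27 to 521.07 RPKM to 12.41 to 64.22, and Thy1 from 10.65 to 14.81 to at most 0.22. Prrx1 (39.46 RPKM or more), Twist1 (14.86 or more) and Pdgfra (6.86 or more) were present in every library, and Lepr stayed at 0.14 or less. The summed list went from 6930 to 7380 RPKM to 752 to 1570, and most of it was Vim, at 5605.55 to 5955.79 RPKM in WT and 589.79 to 1306.65 in the libraries labelled cKO. Of 8 osteoblast markers 3 could be tested and all 3 were lower, with Sp7 and Ibsp at 0 in every library labelled cKO. All 6 endothelial markers stayed under 1 RPKM and the highest of 8 haematopoietic markers was Hbb-bs at 2.24 RPKM, with Cd3e and Adgre1 at 0 throughout. Of 8 epithelial markers 7 stayed under 1 RPKM, and the 8th, the transcription factor Pax8, reached 124.15 to 243.21 RPKM in the libraries labelled cKO against at most 0.21. Nothing in the labels ties a library to an animal of its own, so the p-values speak of the spread among these 6 samples, which may be technical. In bulk RNA, fewer cells of a type and less RNA per cell cannot be told apart.

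Most of the expressed members differed between the groups, as did most genes of these cells. Of the 47 members, 37 averaged 1 RPKM or more across the 6 libraries and were tested. In limma with Benjamini-Hochberg adjustment over all genes tested, 18 members rose and 6 fell in the cKO-labelled group (adjusted p under 0.05), 64.9% of those tested, against 61.2% of all 12223 genes. By direction, 18 of the 37 tested members were higher, against 34.7% of all genes, and 6 of 37 (16.2%) were lower, against 26.5%. The median log2 difference of the tested members was 0.52, against 0.09 over all genes. The 3 cKO values lay above the 3 WT values for 19 of the 37 tested members and below them for 7. Over all genes the groups failed to overlap in 69.0%, with cKO above in 39.2% and below in 29.8%. With an absolute log2 difference of at least 1 required as well, 11 of the 37 were higher and 6 lower, against 13.4% and 12.3% of all genes.

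**Figure D1:**
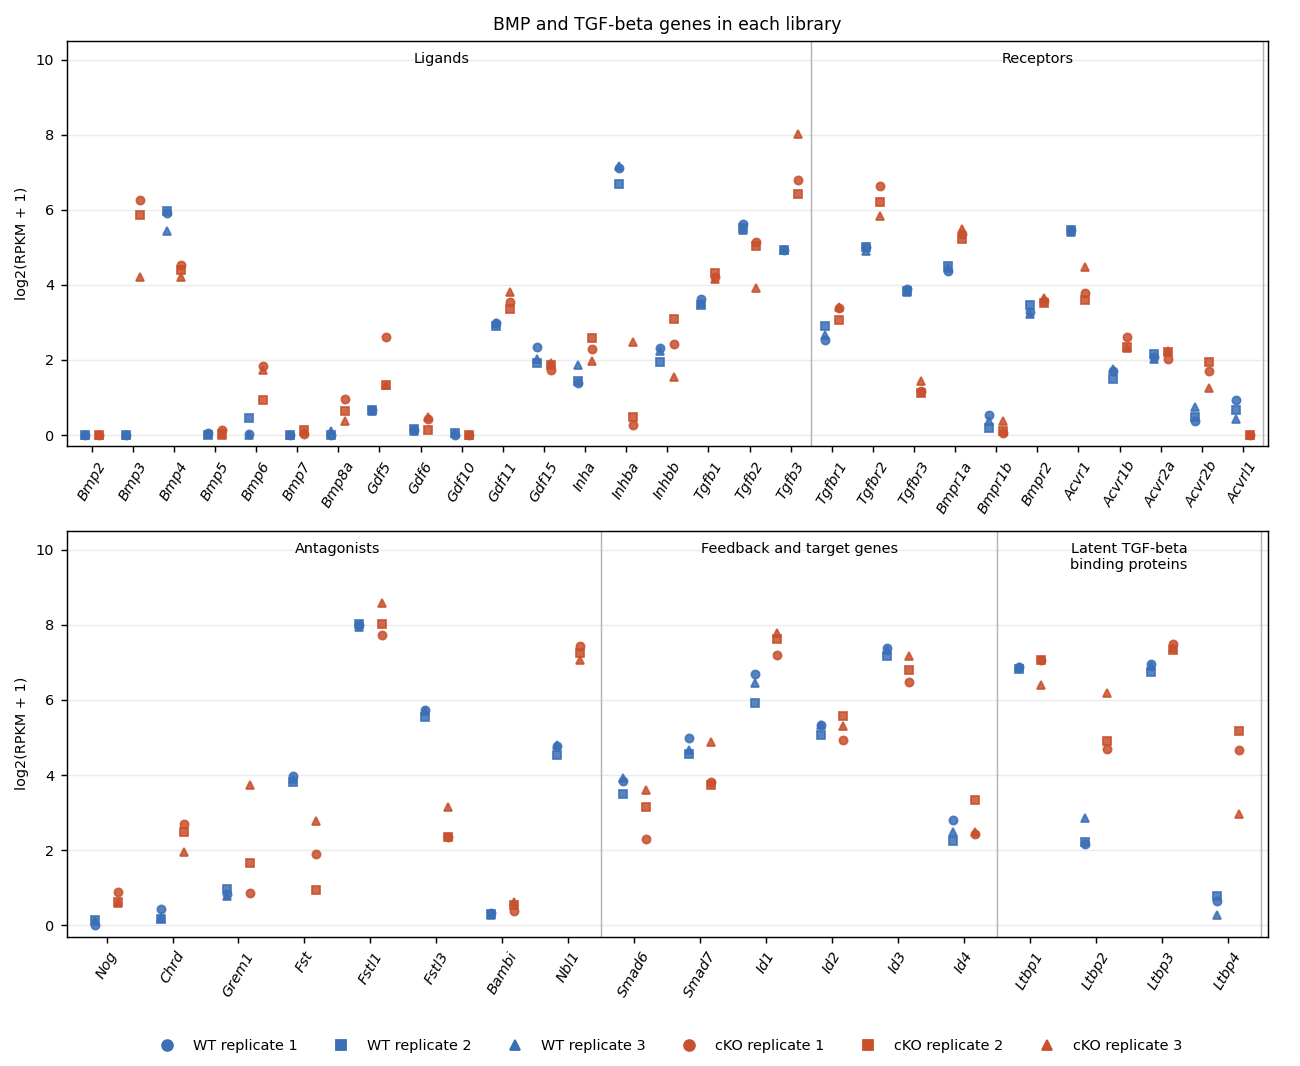
Level of each of the 47 genes in each library, as log2(RPKM + 1), with the WT libraries in blue and the libraries labelled cKO in red, and the marker shape giving the replicate. Inhba, Fst, Fstl3, Tgfbr3 and Acvr1 lie lower in all 3 libraries labelled cKO, and Bmp3, Tgfb3, Nbl1, Ltbp2 and Ltbp4 lie higher.

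Inhba, whose product forms activin A, fell together with the genes of 2 secreted activin inhibitors. Inhba measured 137.82, 102.23 and 143.15 RPKM in WT replicates 1 to 3 against 0.20, 0.40 and 4.62 RPKM in cKO replicates 1 to 3. All 3 cKO values lay far below the WT values, and replicate 3 was the highest of them. The log2 difference was −5.91 ± 0.57 (SE; limma adjusted p = 0.000218). Its share of the summed RPKM of the activin and inhibin subunit genes was 95.7 to 96.1% in the WT libraries and 2.36, 3.11 and 48.9% in cKO replicates 1 to 3.

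Inhbb, which encodes the activin B subunit, measured 3.97, 2.82 and 3.71 RPKM in WT replicates 1 to 3 against 4.40, 7.49 and 1.93 in the replicates labelled cKO. The cKO values lay on both sides of the WT values, and the log2 difference of 0.20 had a 95% interval of −0.70 to 1.09 (limma adjusted p = 0.673). Inha, the alpha subunit that turns an activin into an inhibin, measured 1.61, 1.73 and 2.65 RPKM in WT against 3.88, 4.98 and 2.89 RPKM in cKO replicates 1 to 3. Inha rose by a log2 difference of 0.71 ± 0.21 (SE; limma adjusted p = 0.0254), a call that 6 alternatives lost, among them leaving out WT replicate 1 (0.0883), WT replicate 2 (0.0835), cKO replicate 1 (0.0645) or cKO replicate 2 (0.0664). The 3 genes summed to 107 to 150 RPKM in the WT libraries and to 8.48 to 12.9 in the libraries labelled cKO.

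Follistatin (Fst) and follistatin-like 3 (Fstl3) bind activin with high affinity and block it. Fstl3 measured 52.51, 45.91 and 50.92 RPKM in WT replicates 1 to 3 against 4.12, 4.14 and 7.81 in the replicates labelled cKO. The groups were far apart and the cKO values close together, a 9.29-fold fall of the mean and a log2 difference of −3.04 ± 0.22 (SE; limma adjusted p = 7.15e-05). Fst measured 14.67, 13.16 and 13.79 RPKM in WT against 2.7, 0.90 and 5.88 RPKM in cKO replicates 1 to 3. The cKO values of Fst were again all below the WT values but spread more widely, with a log2 difference of −2.03 ± 0.43 (SE; limma adjusted p = 0.00629). The mean of Fst fell 4.39-fold, and 7.71-fold without cKO replicate 3. Fstl1, a secreted glycoprotein of the same family, was the most abundant of the listed antagonist genes, at 251.90, 260.53 and 243.38 RPKM in WT and 210.30, 261.02 and 379.77 RPKM in cKO replicates 1 to 3. Its cKO values lay below, just above and well above the WT values (log2 difference 0.13, 95% interval −0.36 to 0.61, limma adjusted p = 0.609).

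**Figure D2:**
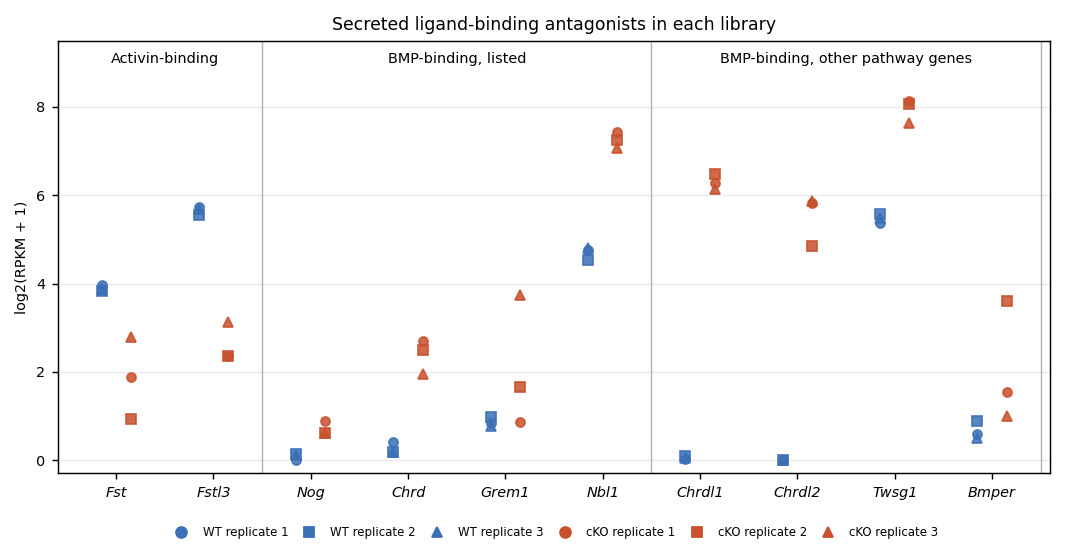
Secreted antagonists in each library as log2(RPKM + 1), split into those that bind activin, the listed ones that bind BMPs and further pathway genes that bind BMPs. Fst and Fstl3 lie lower in all 3 libraries labelled cKO, while Nbl1, Chrd, Chrdl1, Chrdl2 and Twsg1 lie higher.

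Of the listed antagonists that bind BMPs, Nbl1 and Chrd rose and Grem1 did not pass. Nbl1 (DAN), which traps BMPs and related growth and differentiation factors, measured 26.22, 22.23 and 26.90 RPKM in WT replicates 1 to 3 against 173.09, 150.35 and 133.76 in the replicates labelled cKO. The groups did not come near each other, and the mean rose 6.07-fold (log2 difference 2.55 ± 0.12 SE, limma adjusted p = 1.41e-05). With each chromosome centred on its median the difference of Nbl1 was 2.11 (limma adjusted p = 3.16e-05). Chordin (Chrd), which holds BMPs away from their receptors, measured 0.34, 0.13 and 0.14 RPKM in WT against 5.49, 4.62 and 2.86 RPKM in cKO replicates 1 to 3. WT replicates 2 and 3 lay under the floor of 3 fragments per kilobase, all 3 cKO values lay well above it, and the log2 difference was 2.12 ± 0.22 (SE; limma adjusted p = 0.000311).

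Noggin (Nog), another BMP trap, was too low to be tested, at 0, 0.10 and 0.09 RPKM against 0.84, 0.54 and 0.52. Its WT values were under the floor and its cKO values above it. Gremlin (Grem1), which binds BMP2, BMP4 and BMP7 proteins, measured 0.78, 0.96 and 0.72 RPKM in WT against 0.81, 2.16 and 12.43 RPKM in cKO replicates 1 to 3. In Grem1 cKO replicate 1 lay within the WT values and replicate 3 far above them, and the difference did not pass (log2 1.23, 95% interval −0.42 to 2.87, limma adjusted p = 0.163). The mean of Grem1 was 6.26-fold higher in the libraries labelled cKO with all libraries and 1.81-fold without cKO replicate 3, and it passed without cKO replicate 1 (log2 1.84, limma adjusted p = 0.0447). Bambi, a receptor-like membrane protein without a kinase domain, stayed at 0.21 to 0.26 RPKM in WT and 0.31 to 0.53 in the libraries labelled cKO. Summed, the 4 BMP-binding genes of the list (Nog, Chrd, Grem1 and Nbl1) went from 23.4 to 27.8 RPKM to 150 to 180, and the activin-binding genes Fst and Fstl3 went from 59.1 to 67.2 RPKM to 5.04 to 13.7. Nbl1 made up 89.4 to 96.6% of the first sum in every library, so that sum is mostly one gene.

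Bmp4 was nearly the only Bmp gene expressed in the WT libraries, and Bmp3 stood beside it in those labelled cKO. Bmp4, an osteogenic BMP, measured 58.94, 61.53 and 42.25 RPKM in WT replicates 1 to 3 against 21.93, 20.17 and 17.59 in the replicates labelled cKO. The groups did not overlap, and the mean fell 2.73-fold (log2 difference −1.39 ± 0.16 SE, limma adjusted p = 0.000481). Bmp3, an atypical BMP known to oppose osteogenic BMPs in bone, was listed at 0 in every WT library while cKO replicates 1 to 3 held 75.60, 57.08 and 17.39 RPKM. Replicate 3 was the lowest of these, and the log2 difference was 5.44 ± 0.50 (SE; limma adjusted p = 0.00018). Bmp4 made up 99.4 to 99.9% of the summed RPKM of the 7 Bmp genes in the WT libraries, and Bmp3 made up 74.7, 72.4 and 46.2% in cKO replicates 1 to 3, where Bmp4 held 21.7, 25.6 and 46.7%. The summed level of these genes overlapped between the groups, at 42.4 to 61.9 RPKM and 37.6 to 101 RPKM.

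The remaining Bmp genes were at low levels. Bmp6 measured 0.02, 0.38 and 0 RPKM in WT replicates 1 to 3 against 2.61, 0.90 and 2.30 in the replicates labelled cKO, above every WT value (log2 difference 1.34 ± 0.29 SE, limma adjusted p = 0.00695). Bmp2 was listed at 0 in all 6 libraries. Bmp5 and Bmp7 stayed at or under 0.10 RPKM in every library, with Bmp7 at 0 in WT. Bmp8a was at 0.30 to 0.93 RPKM in the libraries labelled cKO and at most 0.08 in WT, under the minimum for the test. Of these 7 listed Bmp ligand genes only Bmp3, Bmp4 and Bmp6 reached 1 RPKM.

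Growth and differentiation factors were minor ligands here. Gdf5, a factor of joint and cartilage formation, measured 0.59, 0.59 and 0.55 RPKM in WT replicates 1 to 3 against 5.12, 1.52 and 1.52 in the replicates labelled cKO. All cKO values lay above the WT values, and cKO replicate 1 stood apart (log2 difference 1.10 ± 0.36 SE, limma adjusted p = 0.0331). The mean of Gdf5 rose 4.72-fold, and 2.64-fold without cKO replicate 1, and leaving out WT replicate 1, 2 or 3 ended the call (limma adjusted p = 0.0848, 0.0852 and 0.0857). Gdf11, which patterns the axial skeleton, rose 1.64-fold from 6.42 to 6.94 RPKM to 9.3 to 13.11 (log2 difference 0.63 ± 0.13 SE, limma adjusted p = 0.0067). Gdf15, a stress-induced factor, did not pass, at 2.75 to 4.12 RPKM and 2.35 to 2.78 (log2 difference −0.26, 95% interval −0.63 to 0.11, limma adjusted p = 0.189). Gdf6 and Gdf10 stayed under 0.4 RPKM in every library, with Gdf10 at 0 in all 3 libraries labelled cKO and at most 0.04 in WT.

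Tgfb2 was the most abundant TGF-beta ligand gene in every WT library and Tgfb3 in every library labelled cKO. Tgfb3 (chromosome 12) measured 29.64, 29.39 and 29.52 RPKM in WT replicates 1 to 3 against 110.24, 85.18 and 256.30 in the replicates labelled cKO. The WT values were nearly equal, the cKO values all lay above them, and replicate 3 was far above the other cKO values. The mean of Tgfb3 rose 5.10-fold, and 3.31-fold without cKO replicate 3 (log2 difference 2.15 ± 0.38 SE, limma adjusted p = 0.00284). The genes of chromosome 12 had a median log2 difference of 0.58. With chromosomes centred the difference of Tgfb3 was 1.57 (limma adjusted p = 0.0122). Tgfb2 measured 47.81, 44.88 and 43.15 RPKM in WT against 34.22, 32.01 and 14.10 RPKM in cKO replicates 1 to 3. Its cKO values all lay below the WT values, replicate 3 the furthest, and the difference did not pass (log2 −0.83, 95% interval −1.59 to −0.08, limma adjusted p = 0.0571). It passed without cKO replicate 1, 2 or 3 (limma adjusted p = 0.0383, 0.0489 and 0.00295). Tgfb1, the main TGF-beta of bone matrix, rose 1.68-fold from 9.96 to 11.43 RPKM to 16.81 to 18.98 (log2 difference 0.70 ± 0.09 SE, limma adjusted p = 0.000905). Tgfb1 lies on chromosome 7, whose 899 tested genes had a median log2 difference of 0.64, and with each chromosome centred on its median its difference was 0.05 (limma adjusted p = 0.665).

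Tgfb3 thus made up 33.3 to 35.5% of the summed TGF-beta ligand RPKM in WT, against 68.0, 62.6 and 89.2% for cKO replicates 1 to 3, while Tgfb2 went from 51.9 to 53.8% to 21.1, 23.5 and 4.91%. The sum itself was 83.1 to 88.9 RPKM in WT and 162, 136 and 287 RPKM in cKO replicates 1 to 3, with no overlap between the groups.

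**Figure D3:**
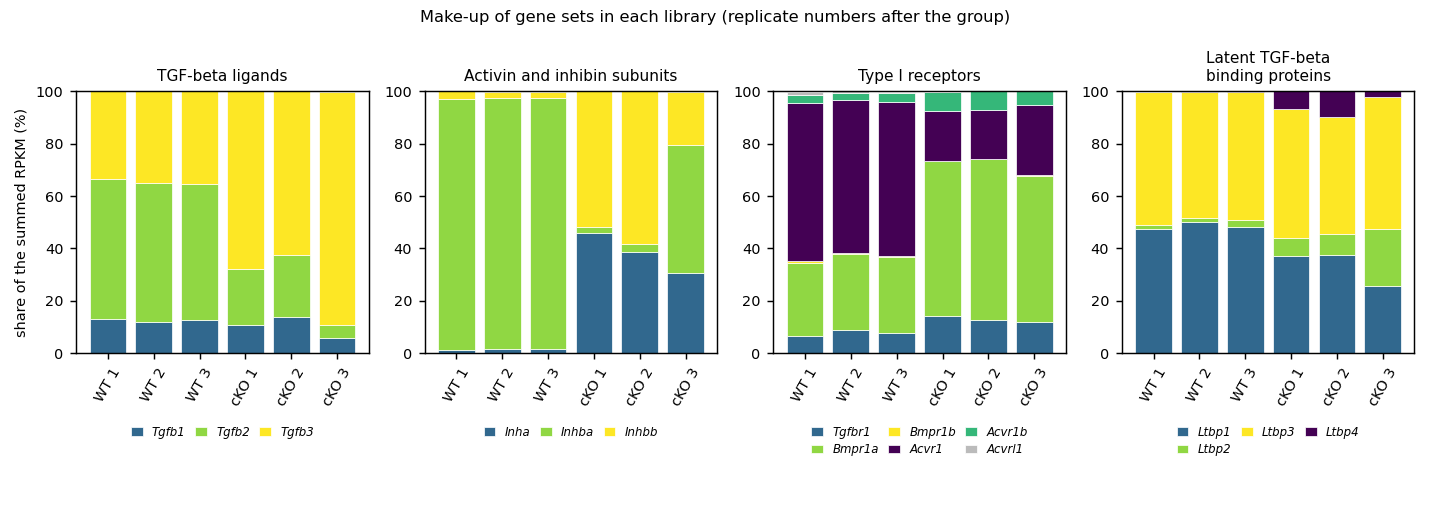
Share of each gene in the summed RPKM of 4 gene sets, 1 bar per library. Tgfb3 replaces Tgfb2 as the largest part of the TGF-beta ligands, Inhba falls from over 95% of the activin and inhibin subunits, Bmpr1a replaces Acvr1 as the largest part of the type I receptors, and Ltbp2 and Ltbp4 take up a larger part of the latent TGF-beta binding proteins in the libraries labelled cKO.

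Of 9 receptors tested 5 rose and 2 fell (77.8% called, against 61.2% of all genes). Tgfbr3 (betaglycan), the co-receptor that presents TGF-beta and inhibin, measured 13.73, 13.36 and 13.04 RPKM in WT replicates 1 to 3 against 1.25, 1.16 and 1.72 in the replicates labelled cKO. Both groups were tight and far apart, with a 9.72-fold fall of the mean (log2 difference −2.60 ± 0.13 SE, limma adjusted p = 1.49e-05). Acvr1, a type I receptor for BMPs and for activin, measured 42.77, 43.41 and 41.59 RPKM in WT against 12.87, 11.03 and 21.43 RPKM in cKO replicates 1 to 3. All cKO values of Acvr1 lay below the WT values, with replicate 3 the nearest to them, and the mean fell 2.82-fold (log2 difference −1.49 ± 0.22 SE, limma adjusted p = 0.00142).

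The type II TGF-beta receptor Tgfbr2 measured 31.30, 31.01 and 29.12 RPKM in WT replicates 1 to 3 against 98.26, 73.02 and 56.53 in the replicates labelled cKO. Every cKO value of Tgfbr2 lay above every WT value, and the mean rose 2.49-fold (log2 difference 1.25 ± 0.19 SE, limma adjusted p = 0.00147). Acvr2b, a type II receptor for activin and myostatin, measured 0.29, 0.39 and 0.67 RPKM in WT against 2.24, 2.85 and 1.38 RPKM in cKO replicates 1 to 3. Its groups did not overlap either, and the mean rose 4.79-fold from a low level (log2 difference 1.10 ± 0.22 SE, limma adjusted p = 0.0051). Tgfbr2 and Acvr2b lie on chromosome 9, with a median log2 difference of 0.34 over its genes. With chromosomes centred their differences were 0.91 and 0.76 (limma adjusted p = 0.00672 and 0.0258). In the main fit the other receptors that rose changed by less than 1 on the log2 scale. The type I BMP receptor Bmpr1a rose 1.93-fold to 36.19 to 44.26 RPKM from 19.84 to 21.81 (limma adjusted p = 0.000316), and the type I activin receptor Acvr1b rose 2.04-fold to 3.99 to 5.13 RPKM from 1.84 to 2.38 (limma adjusted p = 0.00344). The type I TGF-beta receptor Tgfbr1 rose 1.60-fold to 7.34 to 9.55 RPKM from 4.77 to 6.44 (limma adjusted p = 0.0133). Tgfbr1 lies on chromosome 4, with a median log2 difference of 0.44 over its genes, and its call was lost with chromosomes centred (0.15, limma adjusted p = 0.436) and without WT replicate 1 (0.0534).

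The type II receptors Bmpr2 and Acvr2a did not pass. Bmpr2 stood at 8.28 to 9.95 RPKM and 10.42 to 11.67, without overlap (log2 difference 0.27, 95% interval 0.02 to 0.52, limma adjusted p = 0.0613), and passed without WT replicate 2 (0.0488) and with chromosomes centred (0.0151). Acvr2a measured 3.20, 3.50 and 3.10 RPKM in WT against 3.06, 3.60 and 3.74 RPKM in cKO replicates 1 to 3, with cKO values on both sides of the WT values (log2 difference 0.06, 95% interval −0.23 to 0.35, limma adjusted p = 0.669). Acvrl1, the type I receptor known from endothelium, was listed at 0 in all 3 libraries labelled cKO and at 0.90, 0.59 and 0.35 RPKM in WT. Bmpr1b was at most 0.46 RPKM in any library.

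By receptor type, the summed type I receptors overlapped between the groups, at 70.7 to 74.2 RPKM in WT and 58.7 to 79.5 in the libraries labelled cKO, but their make-up differed. Acvr1 made up 58.5 to 60.2% of the WT sum and 18.8 to 26.9% of the cKO sum, while Bmpr1a went from 27.9 to 29.4% to 55.7 to 61.6%. The summed type II receptors went from 41.2 to 44.9 RPKM to 73.3 to 114 RPKM without overlap, and Tgfbr2 was the largest part in every library, at 69.1 to 85.9%.

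**Figure D4:**
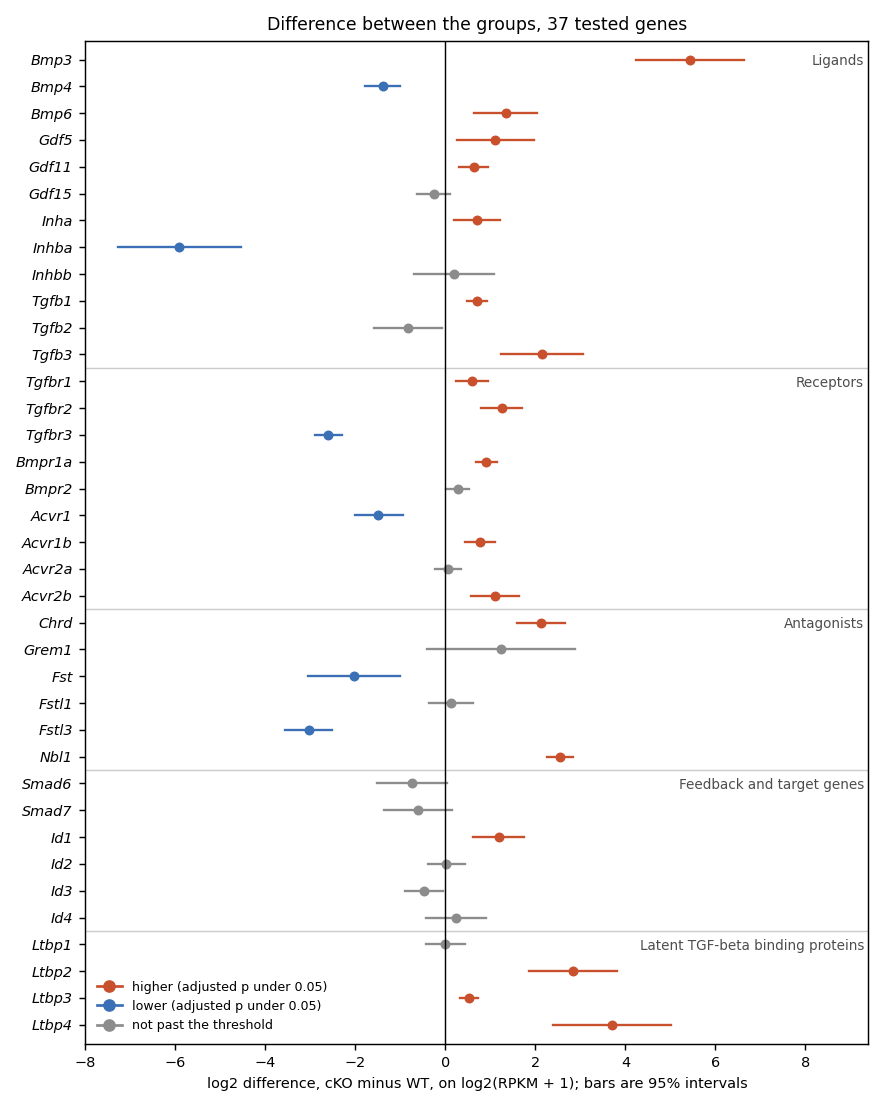
Log2 difference between the libraries labelled cKO and WT for the 37 tested genes, on the log2(RPKM + 1) scale, with 95% intervals from limma and colour giving the call at an adjusted p under 0.05. The largest fall is Inhba (−5.91) and the largest rise Bmp3 (5.44). Of the 6 feedback and target genes 5 did not pass, against 4747 of the 12223 genes tested.

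The feedback and target genes report the signal inside the cell. Of 6 feedback and target genes only Id1 passed (16.7%, against 61.2% of all genes). Id1, a BMP-induced inhibitor of basic helix-loop-helix factors, measured 101.42, 59.27 and 87.18 RPKM in WT replicates 1 to 3 against 145.09, 194.99 and 220.24 in the replicates labelled cKO. All cKO values of Id1 lay above the WT values, of which replicate 2 was the lowest, and the mean rose 2.26-fold (log2 difference 1.18 ± 0.23 SE, limma adjusted p = 0.00457). Its paralog Id3 did not pass, at 165.66, 141.83 and 160.79 RPKM and at 87.33, 110.91 and 144.18 RPKM in the cKO replicates. In Id3 cKO replicate 3 lay within the WT values and replicates 1 and 2 below them (log2 difference −0.47, 95% interval −0.90 to −0.05, limma adjusted p = 0.0558). Id3 lies on chromosome 4, with a median log2 difference of 0.44 over its genes, and was lower with chromosomes centred (−0.92, limma adjusted p = 0.00524). It was also lower with median-of-ratios scaling (−0.59, limma adjusted p = 0.0251) and with sample weights (−0.61, limma adjusted p = 0.00555). Id1 therefore went from 24.9 to 32.5% of the summed Id RPKM to 54.0 to 54.5%, and Id3 from 53.1 to 59.7% to 30.7 to 35.4%, with overlapping sums of 238 to 312 and 266 to 408 RPKM.

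Id2 measured 39.17, 32.80 and 39.14 RPKM in WT replicates 1 to 3 against 29.41, 46.24 and 38.81 in the replicates labelled cKO, below, above and within the WT values (log2 difference 0.02, 95% interval −0.39 to 0.43, limma adjusted p = 0.916). Id2 lies on chromosome 12, with a median log2 difference of 0.58 over its genes, and was lower with chromosomes centred (−0.55, limma adjusted p = 0.0314). Id4 did not pass, at 3.71 to 6.01 RPKM and 4.43 to 9.07 (log2 difference 0.24, 95% interval −0.43 to 0.91, limma adjusted p = 0.482).

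The inhibitory Smads, which the pathway induces and which then block the receptors, were lower in cKO replicates 1 and 2 alone. Smad7 measured 30.93, 22.50 and 24.37 RPKM in WT replicates 1 to 3 against 12.96, 12.22 and 28.21 in the replicates labelled cKO. Smad6 measured 13.40, 10.33 and 14.26 RPKM in WT against 3.91, 7.86 and 11.19 RPKM in cKO replicates 1 to 3. For both genes cKO replicates 1 and 2 lay below every WT value and replicate 3 lay among the WT values. With all libraries in the main fit neither passed, with log2 differences of −0.61 (95% interval −1.36 to 0.15, limma adjusted p = 0.137) for Smad7 and −0.74 (−1.53 to 0.04, limma adjusted p = 0.0895) for Smad6. With sample weights both were lower, Smad7 by −0.86 (limma adjusted p = 0.0132) and Smad6 by −0.98 (limma adjusted p = 0.0134). With chromosomes centred Smad6 was lower (−1.08, limma adjusted p = 0.0293) and Smad7 did not pass (−0.38, limma adjusted p = 0.339). Without cKO replicate 3 both were lower, Smad7 by −0.97 (limma adjusted p = 0.00142) and Smad6 by −1.04 (limma adjusted p = 0.0152), as was Id3 by −0.66 (limma adjusted p = 0.00383). The number of members called lower was then 10 of 36 tested (27.8%) in place of 6 of 37 (16.2%), against 29.7% and 26.5% of all genes.

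Of 4 genes of latent TGF-beta binding proteins 3 rose and none fell (75.0% called, against 61.2% of all genes). Ltbp4, an LTBP that also guides elastic fibre assembly, measured 0.56, 0.73 and 0.20 RPKM in WT replicates 1 to 3 against 24.47, 35.13 and 6.76 in the replicates labelled cKO. All cKO values lay well above WT, with replicate 3 the lowest of them (log2 difference 3.70 ± 0.55 SE, limma adjusted p = 0.00134). Ltbp2, which is found on elastic fibres and does not bind latent TGF-beta, measured 3.52, 3.67 and 6.28 RPKM in WT against 25.11, 28.75 and 71.35 RPKM in cKO replicates 1 to 3. Here replicate 3 was the highest cKO value, and the mean rose 9.3-fold, or 6.00-fold without it (log2 difference 2.84 ± 0.41 SE, limma adjusted p = 0.00118). Ltbp3 rose 1.44-fold from 106.55 to 123.83 RPKM to 159.38 to 177.71 (log2 difference 0.52 ± 0.08 SE, limma adjusted p = 0.0017). With chromosomes centred the differences were 3.06 for Ltbp4, 2.26 for Ltbp2 and 0.74 for Ltbp3.

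Ltbp1 measured 115.81, 111.47 and 116.30 RPKM in WT replicates 1 to 3 against 133.44, 133.48 and 83.74 in the replicates labelled cKO. Replicates 1 and 2 of the cKO group lay above the WT values and replicate 3 below them, with group means of 115 and 117 RPKM (log2 difference −0.00, 95% interval −0.44 to 0.43, limma adjusted p = 0.99). Without cKO replicate 3, Ltbp1 was higher by 0.22 (limma adjusted p = 0.0127). The 4 genes summed to 222 to 244 RPKM in WT and 327 to 361 RPKM in the libraries labelled cKO, of which Ltbp1 and Ltbp3 were the larger parts in every library.

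The libraries labelled cKO differed among themselves in these genes. Against the 3 WT values, cKO replicate 1 was above for 21 of the 37 tested members and below for 14, replicate 2 above for 26 and below for 11, and replicate 3 above for 22 and below for 9. Over all genes tested these libraries lay above the WT values for 48.4, 50.0 and 49.2% and below them for 40.4, 38.5 and 37.7%. Replicate 3 differed from the mean of replicates 1 and 2 by more than 1 on the log2(RPKM + 1) scale for 10 of the 37 members (27.0%), against 6.26% of all genes. It was higher for Inhba, Tgfb3, Grem1, Fst, Smad7 and Ltbp2, and lower for Bmp3, Inhbb, Tgfb2 and Ltbp4. In the same library the 6 smooth muscle markers (Acta2, Tagln, Myh11, Cnn1, Actg2 and Lmod1) summed to 2650 RPKM, against 121 and 226 RPKM in cKO replicates 1 and 2 and 2170 to 2440 RPKM in WT. Most of the 2650 RPKM was Acta2, at 1532.34 and below every WT value (1944.95 or more), and Tagln, at 1006.19 and above every WT value (at most 203.47). Replicate 3 was also the deepest library, at an estimated 22.1 M fragments against 13.1 to 14.9 M in the others. The part of these markers or of depth in the values of the 10 members was not tested.

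**Figure D5:**
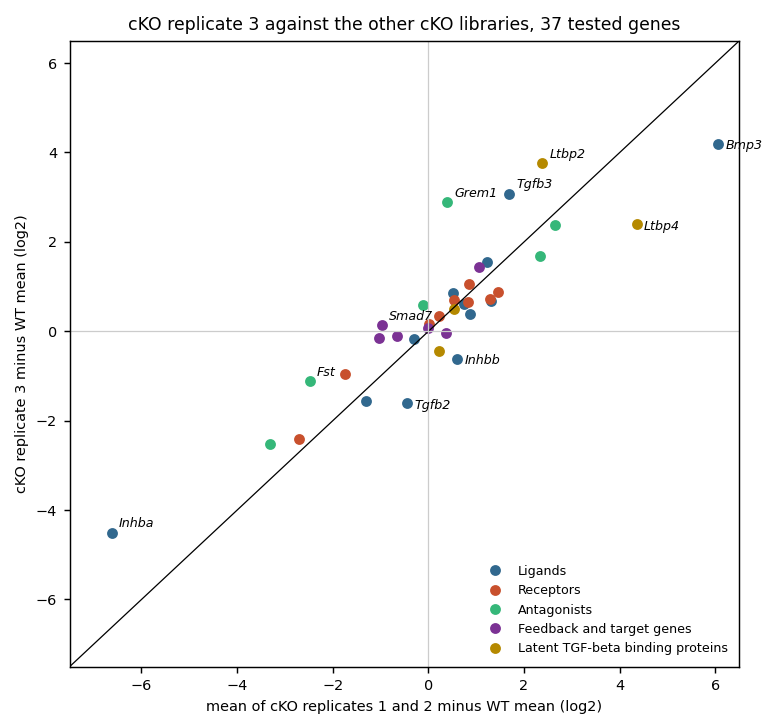
Each tested gene in cKO replicate 3 (vertical) against the mean of cKO replicates 1 and 2 (horizontal), both as log2(RPKM + 1) minus the WT mean, with the diagonal marking equal values. The 10 named genes differ by more than 1, among them Grem1, Tgfb3 and Ltbp2 above the diagonal and Bmp3 and Ltbp4 below it.

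A further list held 72 other genes of the pathway, of which 44 were tested, 13 rose and 14 fell (61.4% called, against the 61.2% of all genes). Further BMP-binding antagonists were among the genes that rose most. Chrdl1 (chordin-like 1) measured 0.02, 0.06 and 0.03 RPKM in WT replicates 1 to 3 against 76.14, 88.27 and 69.76 in the replicates labelled cKO (log2 difference 6.25 ± 0.11 SE, limma adjusted p = 5.21e-07). Chrdl2 was listed at 0 in every WT library while those labelled cKO held 55.98, 27.87 and 57.78 RPKM (log2 difference 5.52 ± 0.28 SE, limma adjusted p = 1.76e-05). Twsg1 (twisted gastrulation), which works with chordin, rose 5.69-fold from 40.18, 46.46 and 43.67 RPKM to 278.27, 265.37 and 197.65 (limma adjusted p = 2.84e-05). Chrdl1, Chrdl2 and Twsg1 did not overlap between the groups, nor did 69.0% of all genes tested. Of 7 tested antagonists outside the member list 4 rose and none fell, so 57.1% were called, against 61.2% of all genes.

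Other genes with large rises were the BMP co-receptor Rgma, 8.96-fold to 14.57 to 23.81 RPKM (limma adjusted p = 9.46e-05), the microfibril gene Fbn2, from at most 0.09 RPKM to 4.12 to 5.87 (limma adjusted p = 4.61e-05), and the proprotein convertase Pcsk5, from at most 0.09 RPKM to 1.51 to 2.78 (limma adjusted p = 0.000693). Among the largest falls were genes that activate or present TGF-beta. Thbs1 (thrombospondin-1), an activator of latent TGF-beta, measured 1794.23, 1485.02 and 1681.57 RPKM in WT replicates 1 to 3 against 26.56, 24.44 and 269.34 in the replicates labelled cKO. It fell 15.5-fold, and 64.8-fold without cKO replicate 3 (log2 difference −4.84 ± 0.88 SE, limma adjusted p = 0.00323). Lrrc32 (GARP), which tethers latent TGF-beta to the cell surface, fell 10.3-fold from 130.20 to 157.92 RPKM to 8.22, 8.12 and 25.84, and 17.8-fold without cKO replicate 3 (limma adjusted p = 0.000524). The TGF-beta co-receptor endoglin (Eng) fell 54.5-fold (limma adjusted p = 3.44e-06).

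Of 8 tested targets on this list 3 fell and none rose (37.5% called, against 61.2% of all genes). Msx2, a homeobox gene induced by BMPs, measured 23.08, 19.07 and 22.52 RPKM in WT replicates 1 to 3 against 1.17, 1.4 and 1.3 in the replicates labelled cKO, a 16.7-fold fall with tight groups (limma adjusted p = 4.34e-06). Ccn2, a classical TGF-beta target, fell 6.58-fold, and 29.4-fold without cKO replicate 3 (limma adjusted p = 0.0144), and missed the threshold without WT replicate 1 (0.0505). Atoh8 was the other target that fell, from 34.95 to 42.81 RPKM to 5.98 to 22.75 (limma adjusted p = 0.0124). Lefty1, a secreted inhibitor of Nodal, was listed with the ligands and not with these targets. It fell from 2.81 to 3.35 RPKM to at most 0.10 (limma adjusted p = 7.39e-05).

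Of the 6 Smads that carry the signal 2 rose and 2 fell (66.7% called, against 61.2% of all genes). Smad3, which serves TGF-beta and activin, rose 3.09-fold from 9.94 to 11.51 RPKM to 21.04 to 43.25 (log2 difference 1.48 ± 0.25 SE, limma adjusted p = 0.00226), while Smad2, which serves the same ligands, fell 1.55-fold to 19.09 to 24.99 RPKM from 32.29 to 33.09 (limma adjusted p = 0.00405). On the BMP side Smad5 rose 1.47-fold (limma adjusted p = 0.00136), Smad9 fell 2.26-fold, or 3.48-fold without cKO replicate 2 (limma adjusted p = 0.0494, and 0.0514 to 0.13 without any other library), and Smad1 did not pass, at 8.91 to 8.94 RPKM and 6.87 to 9.24 (log2 difference −0.13, 95% interval −0.42 to 0.15, limma adjusted p = 0.363). The common partner Smad4 did not pass (log2 difference 0.29, 95% interval 0.02 to 0.55, limma adjusted p = 0.059) but was higher without cKO replicate 3 (0.39, limma adjusted p = 0.00626).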

How the data were processed

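RNA of 3 WT and 3 cKO libraries was read in 151 bp pairs from stranded polyA libraries, per the labels' protocols. Cutadapt 2.8, STAR 2.7.1a, RSEM 1.3.1 and the build GRCm38 are named in the submitters' processing notes, and no annotation version is given in the sources used here. The authors deposited RPKM with 2 decimals, 1 column per library. Read counts were not used here. GENCODE M21 gave symbols for 55230 identifiers and none for 241, and Hjv was matched as Hfe2 and Ctgf as Ccn2.

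Depth was estimated from genes with 1 transcript of 800 to 3500 bp, less 150 bp, whose low values came within 0.2 of whole fragments in 87.0 to 92.5% of cases. The 2-sided test between the groups, on log2(RPKM + 1) with a variance trend, was that of limma (version 3.58.1, under R version 4.3.3). It took in genes averaging 1 RPKM or more, with Benjamini-Hochberg adjustment over all of them. A pseudocount of 1 understates changes of low genes. The smallest exact p for 3 against 3 is 0.1. Folds are ratios of mean RPKM, given only where every library of the lower group reached the floor. Shares and sums carry no test. The procedure was tested on simulated data.

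Values are given for members that passed with a log2 difference of at least 1 and no overlap, were at 0 in 1 group, or whose cKO libraries lay on both sides of WT or spread over 4-fold, and the 6 other pathway genes with the largest change in each direction. The Smads that carry the signal were chosen after their values were seen, and a few genes are not reported here. Members and lists were chosen with earlier results of these data known. Alternatives were other pseudocounts (0.1, 0.5), minimums (0.1, 5 RPKM or none), scalings, chromosome centring, sample weights, a replicate block and leaving out each library. Tables and plots were made with matplotlib 3.10.9, pandas 2.3.3 and numpy 2.4.6 under Python 3.11.15.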

Additional observations from a re-analysis of the deposited data

How the results depend on the processing

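Of the 24 members called, 20 kept their call and direction at an adjusted p under 0.05 under every other pseudocount, minimum, scaling, centring, weighting, block or left-out library that tested them, and Gdf5, Inha, Tgfb1 and Tgfbr1 lost it under at least 1. Of the 13 not called, 7 gained no call in the same direction under any of these. Members called higher numbered 18, and 11 with a log2 difference of at least 1, a threshold that also ends the calls of Gdf11, Bmpr1a, Acvr1b and Ltbp3. Members called lower numbered 6, and 10 with sample weights (0.249 for cKO replicate 3, 0.733 to 2.45 for the others). Leaving out each library gave 15 to 18 higher and 6 to 10 lower. Other pathway genes called higher numbered 13, and 8 with a minimum of 5 RPKM, at which only 33 were tested. Over all genes 4237 were higher and 3239 lower, and 1632 and 1499 with a log2 difference of at least 1. The median log2 difference of the members, 0.52, was 0.24 with a minimum of 5 RPKM (27 members), 0.29 with median-of-ratios scaling and 0.34 with chromosomes centred. Id2 was lower by −0.55 with chromosomes centred and Ltbp1 higher by 0.22 without cKO replicate 3 (−0.11 to 0.22 over the libraries left out), and the cause was not tested. With the replicate number as a block, 17 members were higher and 7 lower, Inha losing its call (limma adjusted p = 0.0613) and Tgfb2 gaining one (0.0375). The labels do not say whether the numbers pair the samples. Deviations of same-numbered libraries correlated across genes at −0.02, 0.05 and −0.02, and not every library correlated best with its own number. Such weak correlations cannot exclude a pairing. Depth limits statements on Bmp5, Bmp7, Gdf10 and other genes under the floor of 3 fragments.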
